A study of Mus musculus with 18 samples.

Results

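Organoids grown from bronchioalveolar stem cells (BASCs) that had been picked for alveolar shape were compared with organoids grown from alveolar type 2 (AT2) cells. The comparison took 3 of the 18 samples of the series, namely 1 alveolar BASC culture and 2 AT2 cultures, which were prepared with the same kit and run on the same instrument type. BASCs were sorted from the distal lung as Sca1-positive epithelial cells and AT2 cells as Sca1-negative ones. The alveolar BASC culture had received adenovirus carrying Cre (Ad-Cre), 1 AT2 culture had received Ad-Cre and the other adenovirus carrying GFP (Ad-GFP). The donor mice carried a human EGFR transgene with the T790M and L858R mutations, placed at 1 Col1a1 locus behind a lox-stop-lox cassette and driven by the CAG promoter. Cre removes that cassette, so by design the transgene was active in the Ad-Cre cultures and silent in the Ad-GFP culture, and the AT2 Ad-Cre culture was the match for virus. All organoids grew with neonatal lung mesenchymal support cells, which the RNA may also contain. Each condition was 1 culture and 1 library, the strain and age of the donors are not in the labels, and the alveolar BASC culture was hand-picked under the microscope. The difference between alveolar BASC and AT2 organoids was therefore described and not tested.

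Further cultures served as references for what other cells express. These were 1 bronchiolar BASC culture (Ad-Cre), 2 mixed BASC cultures (Ad-GFP and Ad-Cre) and 4 tracheal cultures, started from cells sorted without or with the basal cell receptor NGFR and given either virus. Tumoroids grown from transplants of mixed BASC (n = 3) and AT2 organoids (n = 3) into nude mice were used to look up the same genes. The labels of the AT2 tumoroids name an AT2 origin together with a sort for NGFR-negative cells, and they were placed here by origin. Total expected counts were 45022265 in the alveolar BASC culture, 97191624 in the AT2 Ad-Cre culture and 76844492 in the AT2 Ad-GFP culture. They lay between 27772660 and 97191624 over the 10 organoid cultures and between 15327265 and 23355938 over the tumoroids.

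AT2 cells make surfactant and renew the alveolus, and give rise to the flat alveolar type 1 (AT1) cells that exchange gas. BASCs sit where the small airway opens into the alveoli and can form both airway and alveolar cells. The airway lining itself holds basal cells, which are keratin 5-positive stem cells, secretory club cells, and multiciliated cells, whose beating cilia are built under the control of the transcription factor FOXJ1. The question was which transcripts still set BASC-derived organoids apart when they carried as much Sftpc as AT2 organoids, and which of these transcripts airway cells or stroma in the culture also express.

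Values are CPM, a gene's count relative to its library's total with edgeR's TMM factors, and differences are in log2 CPM. A gene was compared when it reached 1 CPM in at least 1 of the 3 cultures, which left 14723 genes. It is called higher or lower here when the alveolar BASC culture lay outside both AT2 cultures and at least 2-fold from the nearer one. The alveolar BASC culture lay above both AT2 cultures at 5004 genes (34.0%) and below both at 5425 (36.8%). At the 2-fold distance 362 genes were higher (2.46% of those compared) and 135 were lower (0.917%). A higher gene could enter the comparison through the alveolar BASC culture alone. Only 83 of the 362 higher genes, and 68 of the 135 lower ones, reached 1 CPM in all 3 cultures. Pair by pair, the alveolar BASC culture differed at least 2-fold from AT2 Ad-Cre at 749 genes (5.09%) and from AT2 Ad-GFP at 1139 genes (7.74%), and the 2 AT2 cultures differed from each other at 739 genes (5.02%). Pearson's r across the 14723 genes, which are not independent replicates, was 0.958 between alveolar BASC and AT2 Ad-Cre, 0.950 between alveolar BASC and AT2 Ad-GFP, and 0.978 between the AT2 cultures. With the bronchiolar BASC culture the alveolar BASC culture had an r of 0.880. Of the genes nearest to the 2-fold step, Fam167a at a distance of 1.004 log2 units counted as higher, while Svep1 at -1.001 counted as lower and Gm26628 at -0.999 did not.

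**Figure D1:**
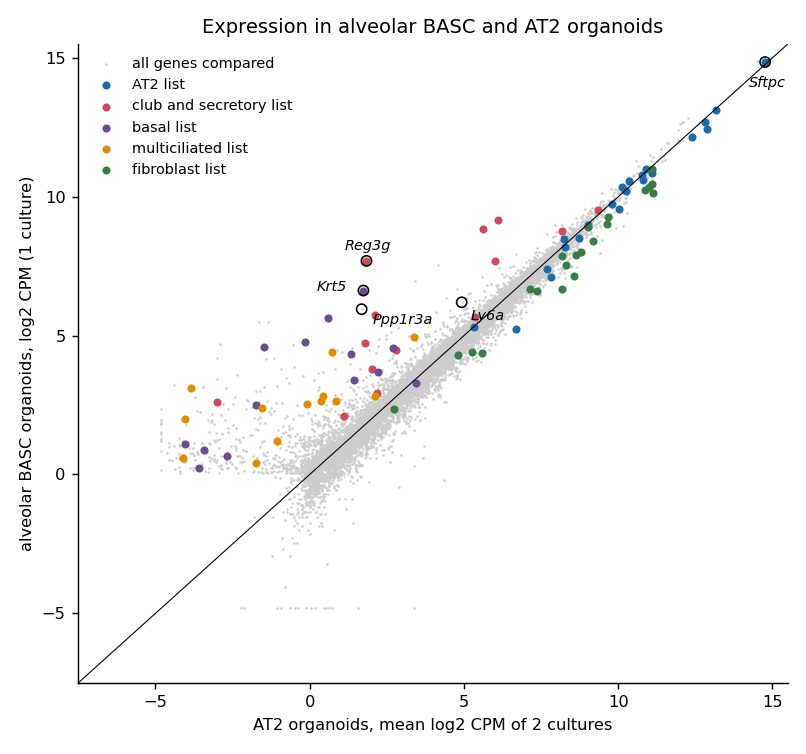
Expression in the alveolar BASC culture (vertical axis, log2 CPM) against the mean of the 2 AT2 cultures (horizontal axis, log2 CPM) for 14723 genes, with the line of equal expression and marker lists in colour. AT2 genes follow the line up to Sftpc, fibroblast genes lie slightly below it, and basal, multiciliated and several secretory genes lie above it.

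AT2 genes stood at similar levels in the 3 cultures. Sftpc (ENSMUSG00000022097, chromosome 14 from 70520949 to 70524081 of GRCm38), which encodes surfactant protein C, measured 29512 CPM in the alveolar BASC culture, 27589 CPM in AT2 Ad-Cre and 27996 CPM in AT2 Ad-GFP. The alveolar BASC value exceeded the AT2 values 1.07-fold and 1.05-fold. In the other BASC cultures the gene was far lower, at 144 CPM in the bronchiolar culture and at 97.2 and 669 CPM in the mixed cultures. In the 4 tracheal cultures it lay between 1.32 and 26.9 CPM. In Sftpc the alveolar BASC culture stood with the AT2 cultures and apart from every other organoid culture. The culture had been picked for alveolar shape and the comparison was chosen for equal Sftpc. Its level is therefore a condition of the comparison and not a result.

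Over the 22 genes of the AT2 list the median difference was -0.09 log2 units, where the median of all genes was -0.005. None of them was called higher and 1 was called lower, where 2.46% and 0.917% of all genes were. Lamp3, a lamellar body protein, measured 1741 CPM in alveolar BASC organoids against 1343 CPM in AT2 Ad-Cre and 2296 CPM in AT2 Ad-GFP, inside the AT2 range. Sftpb, Napsa, Sftpa1 and Etv5 were also inside it. The gene called lower was Lyz1, a lysozyme, at 37.8 CPM against 81.5 CPM in AT2 Ad-Cre and 128 CPM in AT2 Ad-GFP. It shares near-identical sequence with Lyz2, so the split of reads between them is uncertain, and Lyz2 itself stood at 5588, 6320 and 9104 CPM.

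The AT1 list leaned upward without any gene reaching the 2-fold step. Of its 16 genes, 13 lay above both AT2 cultures, against 34.0% of all genes, and the median difference was 0.45. Ager, the receptor that marks AT1 cells, measured 2218 CPM against 1836 CPM in AT2 Ad-Cre and 1362 CPM in AT2 Ad-GFP. Against AT2 Ad-Cre alone the median of the list was 0.18, and against AT2 Ad-GFP alone it was 0.74. Between the AT2 cultures, Ad-Cre was the higher at 15 of the 16 genes.

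The list of transitional alveolar genes, keratins and stress genes seen when AT2 cells turn into AT1 cells, had 14 of 18 genes above both AT2 cultures and a median of 0.38. Of all genes, 34.0% lay above both. Of the 18, 1 was called higher, where 2.46% of all genes were. Tnip3, an inhibitor of NF-kappaB signaling, measured 19.8 CPM against 4.73 and 8.91 CPM in AT2 Ad-Cre and Ad-GFP. Cldn4, a tight junction claudin, fell just short of the step at 67.3 CPM against 34.2 and 26.4 CPM. Krt8 stood at 657 CPM against 540 and 513 CPM. Both Cldn4 and Krt8 were higher still in the bronchiolar BASC culture, at 1286 and 1844 CPM.

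Airway genes were prominent among the higher genes. Of the 14 genes in the basal cell list 11 were called higher, of the 13 in the multiciliated list 12, of the 14 compared in the club and secretory list 8, and of the 6 in the list of airway lineage genes and keratins 3, where 2.46% of all genes were. The list medians were 4.04, 2.39, 1.73 and 2.05 log2 units. On the log2(TPM + 1) scale, which understates low genes, they were 1.84, 1.69, 1.56 and 0.89, and the basal median was 3.00 over genes with at least 10 counts in each culture. The summed level of the basal list was 288 CPM in the alveolar BASC culture, 49.5 CPM in AT2 Ad-Cre and 26.1 CPM in AT2 Ad-GFP, against 5888 to 7197 CPM in the tracheal cultures. That of the multiciliated list was 107, 27.3 and 19.3 CPM, against 832 to 977 CPM. That of the secretory list was 2792, 1617 and 1114 CPM. Among these 4 lists no gene was called lower. Because the members were chosen with earlier results of these data in view, these counts carry no test.

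Krt5 (ENSMUSG00000061527, chromosome 15 from 101707070 to 101712898), the keratin that defines basal cells, measured 98.5 CPM in the alveolar BASC culture, 6.60 CPM in AT2 Ad-Cre and 1.65 CPM in AT2 Ad-GFP. The alveolar BASC value was 14.9-fold and 59.8-fold above them. It was also far below the airway cultures, which held 506 CPM (bronchiolar BASC), 1661 and 1017 CPM (mixed BASC) and 1849 to 2387 CPM (tracheal). Its partner Krt14 stood at 49.5 CPM against 3.14 and 0.681 CPM. Krt17, a keratin of basal and injured epithelium, stood at 24.2 CPM against 0.177 and 0.554 CPM. Col17a1, which anchors basal cells to the basement membrane, stood at 27.3 CPM against 1.27 and 0.582 CPM. Ngfr, the surface receptor used to sort basal cells from the trachea, was detected at 5.68 CPM against 0.509 and 0.128 CPM. In each of these genes the 2 AT2 cultures were low and the alveolar BASC culture was intermediate between them and the airway cultures.

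The 3 basal list genes that were not called were Trp63, Itgb4 and Snai2. Trp63, the transcription factor of basal cell identity, measured 12.8 CPM against 6.50 and 3.32 CPM, a distance of 0.97 log2 units. Itgb4 measured 23.5 CPM against 12.7 and 3.29 CPM. Snai2, which mesenchymal cells express as well, measured 9.71 CPM against 11.3 and 10.4 CPM and was the single gene of the list below both AT2 cultures.

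The secretory genes were less uniform. Reg3g (ENSMUSG00000030017, chromosome 6 from 78466269 to 78468872), an antibacterial lectin, stood at 207 CPM against 3.30 CPM in AT2 Ad-Cre and 3.80 CPM in AT2 Ad-GFP, which is 62.6-fold and 54.3-fold. Cbr2, a carbonyl reductase of club cells, stood at 566 CPM against 133 and 35.2 CPM. Ltf, the iron-binding protein lactoferrin, stood at 463 CPM against 176 and 13.4 CPM. For Cbr2 and Ltf the AT2 Ad-Cre culture already held several times the AT2 Ad-GFP level. Scgb1a1, which encodes the club cell secretory protein CCSP, did not follow. It measured 206 CPM in alveolar BASC organoids, 311 CPM in AT2 Ad-Cre and 13.0 CPM in AT2 Ad-GFP, so the alveolar BASC culture lay between the AT2 cultures. Scgb1a1 reached 1477 CPM in the bronchiolar BASC culture and only 1.63 to 4.40 CPM in the tracheal ones. Cyp2f2, a club cell cytochrome P450, stood at 437 CPM against 292 and 291 CPM and did not reach the step.

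Multiciliated genes were higher with 1 exception. Foxj1 (ENSMUSG00000034227, chromosome 11 from 116330704 to 116335399) measured 21.2 CPM in the alveolar BASC culture, 1.85 CPM in AT2 Ad-Cre and 1.41 CPM in AT2 Ad-GFP, an 11.5-fold and a 15.1-fold difference. Dnah5, a dynein heavy chain of the cilium's outer arms, measured 8.53 CPM from 356 counts, with 0 counts in AT2 Ad-Cre and 7 counts in AT2 Ad-GFP. Hydin, a protein of the central pair of microtubules, measured 4.00 CPM from 167 counts, with 1 and 3 counts in the AT2 cultures. Tppp3, a tubulin-binding protein, measured 30.8 CPM against 14.3 and 7.48 CPM. Ccno, a cyclin needed to amplify centrioles, was the exception, at 6.97 CPM against 4.63 and 4.05 CPM. In the bronchiolar BASC culture several of them stood at nearly the same level, with Dnah5 at 8.40 CPM, Hydin at 4.48 CPM and Tppp3 at 34.1 CPM. Foxj1 was higher there, at 105 CPM.

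The promoters of the called multiciliated genes are shown because these genes were higher together and because the regulatory factor X (RFX) proteins, which bind a motif called the X-box, are known to control cilium genes. RefSeq's table of promoters (build GRCm38.p6, from 250 bases before to 50 after the start) had 9 of the 12 called genes. An X-box was searched on both strands as GTTNCCNGNAAC with 0 to 3 further N after GTTNCC, that is GTTNCCNGNAAC, GTTNCCNNGNAAC, GTTNCCNNNGNAAC or GTTNCCNNNNGNAAC. It was found for 4 of the 9 genes, and in 611 of all 32851 promoters (1.86%). Some genes have several promoters in the table and so more chances of a match. The promoters with a match read as follows, the matched bases being in capitals. Dynlrb2 encodes a dynein light chain, and Pifo and Spag17 encode proteins of the ciliary base and central pair.
Dynlrb2 (chr8:116504765-116505064, plus strand): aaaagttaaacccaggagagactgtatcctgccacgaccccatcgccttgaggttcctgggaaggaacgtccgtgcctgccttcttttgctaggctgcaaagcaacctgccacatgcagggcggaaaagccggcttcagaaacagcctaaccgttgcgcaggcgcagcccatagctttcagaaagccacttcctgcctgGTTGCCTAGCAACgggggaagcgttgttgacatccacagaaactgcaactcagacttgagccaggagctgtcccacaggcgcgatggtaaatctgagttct
Hydin (chr8:110266727-110267026, plus strand): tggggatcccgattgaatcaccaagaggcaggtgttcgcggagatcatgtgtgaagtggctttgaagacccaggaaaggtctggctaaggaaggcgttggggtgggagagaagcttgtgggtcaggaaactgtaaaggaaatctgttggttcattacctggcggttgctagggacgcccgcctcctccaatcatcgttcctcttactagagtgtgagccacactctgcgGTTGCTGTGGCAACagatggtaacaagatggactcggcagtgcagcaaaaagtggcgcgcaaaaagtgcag
Pifo (chr3:106001448-106001747, minus strand): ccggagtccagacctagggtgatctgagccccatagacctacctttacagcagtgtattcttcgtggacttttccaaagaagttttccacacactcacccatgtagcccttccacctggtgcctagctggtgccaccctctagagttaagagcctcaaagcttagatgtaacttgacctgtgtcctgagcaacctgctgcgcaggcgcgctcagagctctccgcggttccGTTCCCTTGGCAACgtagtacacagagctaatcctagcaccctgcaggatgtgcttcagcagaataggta
Spag17 (chr3:99885167-99885466, plus strand): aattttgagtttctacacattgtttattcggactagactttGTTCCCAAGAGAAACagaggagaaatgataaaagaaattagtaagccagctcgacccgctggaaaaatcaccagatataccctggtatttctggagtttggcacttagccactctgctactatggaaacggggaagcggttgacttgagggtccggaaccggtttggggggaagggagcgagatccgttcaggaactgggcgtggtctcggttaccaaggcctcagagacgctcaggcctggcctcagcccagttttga
The arm GTTGCC alone occurred in 12.5% of all promoters and in those of 5 of the 9 genes. A match describes the letters of these windows and says nothing of binding in the cultures.

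**Figure D2:**
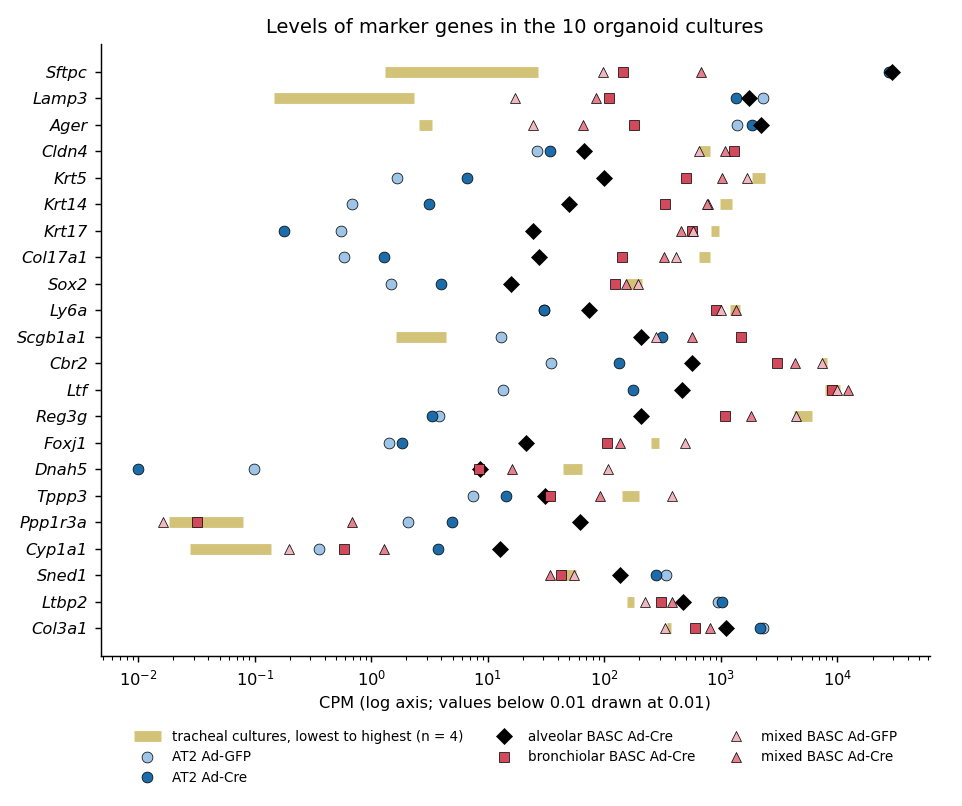
CPM (horizontal log axis, values below 0.01 drawn at 0.01) of selected genes in the 10 organoid cultures, with 1 symbol per culture and a bar from the lowest to the highest of the 4 tracheal cultures. The alveolar BASC culture (black diamonds) coincides with the AT2 cultures for Sftpc, lies between them and the airway cultures for Krt5, Ly6a and Reg3g, and lies above every other culture for Ppp1r3a and Cyp1a1.

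Ly6a (ENSMUSG00000075602, chromosome 15 from 74994877 to 74998031) encodes Sca1, the surface protein by which BASCs and AT2 cells were sorted, so a difference in it was built into the starting cells. After culture it measured 73.4 CPM in alveolar BASC organoids, 30.4 CPM in AT2 Ad-Cre and 30.4 CPM in AT2 Ad-GFP, which is 2.42-fold. The AT2 cultures were alike and the alveolar BASC culture lay above them. It was still closer to AT2 organoids than to the airway cultures, where Ly6a stood at 901 CPM (bronchiolar BASC), 996 and 1353 CPM (mixed BASC) and 1187 to 1472 CPM (tracheal). Of the 8 genes of the Ly6 family that could be compared, Ly6a was the only one called, where 2.46% of all genes were called higher. Ly6e stood at 926 CPM against 861 and 555 CPM. Ly6i, at 33.2 CPM against 6.54 CPM in AT2 Ad-Cre and 27.5 CPM in AT2 Ad-GFP, exceeded only the first by a wide margin. The median of the family was 0.31.

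To place the airway transcripts on 1 scale, the excess of the alveolar BASC culture over the mean of the AT2 cultures was expressed as a percentage of the excess of the mean tracheal culture. For the 11 called basal genes this percentage ranged from 2.53 to 16.2 with a median of 4.11. For 8 secretory genes it ranged from 1.63 to 21.0 with a median of 5.51, and for 12 multiciliated genes from 4.66 to 18.0 with a median of 10.7. Sox2, the transcription factor of the airway lineage, measured 15.7 CPM against 3.98 and 1.48 CPM, an excess of 7.21%. The excess of Ly6a was 3.23%, within the range of the called basal and secretory genes. Against the bronchiolar BASC culture the medians were 16.1% for basal, 12.5% for secretory and 78.9% for multiciliated genes, and Ly6a stood at 4.94%. The ranges were wide, at 4.22 to 105% for basal, 0.487 to 51.1% for secretory and 18.9 to 164% for multiciliated genes. The highest basal and multiciliated genes thus exceeded their bronchiolar level. Multiciliated genes had the highest median with both references, and the order of basal and secretory genes turned. In bulk RNA, fewer cells of a type and less RNA per cell cannot be told apart, so these percentages are not shares of cells.

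The same held beyond the lists. Of 406 genes that were at least 8-fold higher in every tracheal culture than in either AT2 culture, 390 lay above both AT2 cultures in the alveolar BASC culture and 294 were called higher, against 34.0% and 2.46% of all genes. Since low AT2 values helped to pick these genes, the counts are a description. Their excess had a median of 6.76% of the tracheal one, with quartiles of 4.15 and 9.55%. Conversely, of 567 genes at least 8-fold higher in both AT2 cultures than in every tracheal culture, 3 were called higher (Ppp1r3a, Rhcg and Gm37516) and 26 lower, where 2.46% and 0.917% of all genes were. Of the 26, 7 were in the stromal class described next, and others such as Col14a1, Svep1 and Fndc1, chosen after their values were seen, encode matrix or matrix-associated proteins, so the set is not of AT2 genes alone. The median difference of the 567 was -0.30, high AT2 values having helped to pick them.

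**Figure D3:**
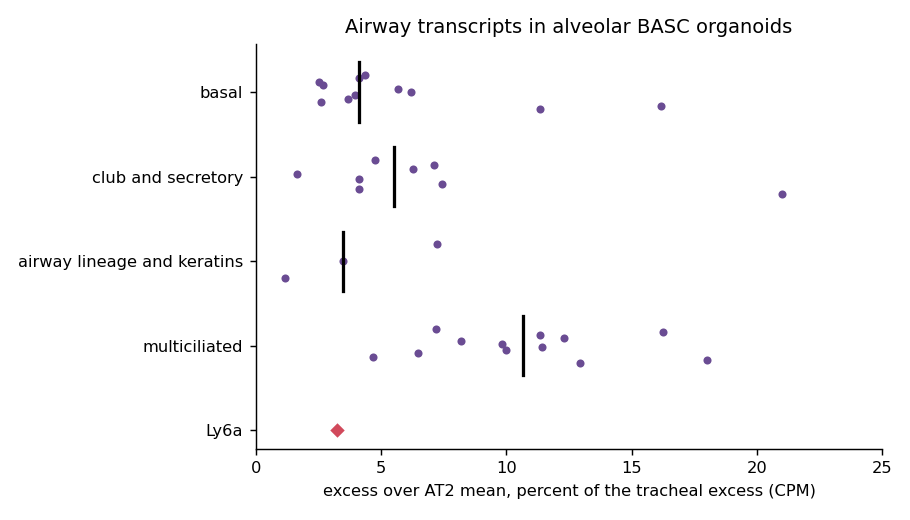
Excess of the alveolar BASC culture over the AT2 mean, as a percentage of the excess of the tracheal mean (horizontal axis), for the called genes of 4 airway lists (points; bar, median of the list) and for Ly6a (diamond). The basal median is 4.11%, the multiciliated median 10.7%, and Ly6a stands at 3.23%.

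The 362 higher genes were then divided with the help of libraries outside the contrast. A higher gene was put in an airway class when the bronchiolar BASC culture was at least 2-fold above the alveolar BASC culture, which 155 of them met (42.8%, against 9.26% of all genes compared). The alveolar BASC value that chose the genes also enters this rule, so the division is a description. For 94 of the 362 the bronchiolar culture lay below the alveolar BASC culture. A gene was put in a stromal class when its log2 CPM followed the mean of the fibroblast list with an r of at least 0.7 over the 15 other libraries, which a single higher gene met, the endothelial proteoglycan gene Esm1. The remaining 206 included most multiciliated genes. With each of the 4 tracheal cultures in place of the bronchiolar one, 299 of the 362 were in the airway class (82.6%, against 9.87% of all genes) and 62 remained. With either reference, a choice made after the values were seen, 304 were airway genes (84.0%, against 13.5%), 1 was stromal and 57 remained.

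The higher genes were mostly of low abundance. Of the 362, 320 were protein coding and 13 were pseudogenes, 60 reached 10 CPM in the alveolar BASC culture, and for 33 both AT2 cultures held 3 counts or fewer. The largest distances among those with at least 10 CPM belonged to Serpinb11 (18.3 CPM against 0.022 and 0.227 CPM) and AU040972 (26.1 CPM against 0.011 and 0.341 CPM). Reg3g, 2210407C18Rik, Krt17 and the endothelin gene Edn2 followed, and then Prom1, Clca3b, Col17a1 and Gm26527. Of these 10, 9 were higher in every tracheal culture than in the alveolar BASC culture. Serpinb11, for instance, reached 286 to 409 CPM in the trachea, and Prom1, a membrane protein of stem and ciliated cells, 289 to 519 CPM. Gm26527 was the exception, at 13.8 CPM in the alveolar BASC culture and at most 3.59 CPM in the 7 organoid cultures other than the AT2 ones.

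A small set was higher in the alveolar BASC culture than in AT2 organoids without being an airway gene by either reference. It held 58 genes, of which 23 were protein coding and 11 reached 10 CPM, with a median of 2.73 CPM. Of the 11, only 4 were protein coding, namely Ppp1r3a, Cyp1a1, Eno1b and Gm20721, and these names were taken after the values were seen. Eno1b is a near-identical copy of Eno1, so its counts are uncertain. Rpl10-ps1 and Gm8355, named by the size of their distance, stood at 45.2 and 45.3 CPM with 0 CPM in AT2 Ad-Cre, but as copies of other genes their reads are equally uncertain.

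Ppp1r3a (ENSMUSG00000042717, chromosome 6 from 14713977 to 14755274) encodes the subunit that brings protein phosphatase 1 to glycogen, known mainly from skeletal muscle. It measured 61.9 CPM in alveolar BASC organoids, 4.89 CPM in AT2 Ad-Cre and 2.06 CPM in AT2 Ad-GFP, 12.6-fold and 30.1-fold. Its level was 0.032 CPM in the bronchiolar BASC culture, 0.016 and 0.689 CPM in the mixed BASC cultures, and at most 0.079 CPM in the trachea. The 3 alveolar cultures thus held the 3 highest levels, and the BASC-derived one the highest. In the tumoroids it was near the floor, with 3, 15 and 1 counts from AT2 and 2, 1 and 29 counts from mixed BASCs. Its promoter in the same RefSeq table is printed because this gene was higher by neither airway reference nor in the stromal class. The capitals mark a TATA-like TATAAA and the letters CTANNNNTAG of the muscle factor MEF2, the latter overlapping a second TATAAA on the other strand.
Ppp1r3a (chr6:14755225-14755524, minus strand): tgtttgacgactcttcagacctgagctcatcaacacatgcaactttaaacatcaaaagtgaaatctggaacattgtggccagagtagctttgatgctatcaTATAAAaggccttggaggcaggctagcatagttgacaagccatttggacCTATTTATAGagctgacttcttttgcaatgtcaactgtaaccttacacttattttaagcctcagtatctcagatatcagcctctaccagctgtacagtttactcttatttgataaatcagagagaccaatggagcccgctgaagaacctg
Across all promoters of the table CTANNNNTAG occurred in 3.69% and TATAAA in 13.6%.

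Cyp1a1, a cytochrome P450 induced through the aryl hydrocarbon receptor, measured 12.6 CPM against 3.71 CPM in AT2 Ad-Cre and 0.355 CPM in AT2 Ad-GFP. It stayed at or below 1.28 CPM in the other 7 organoid cultures. Ctnnd2, a delta catenin of cell junctions, had the same shape at a lower level (8.48 CPM against 3.17 and 2.10 CPM, with at most 0.697 CPM elsewhere). For both genes the AT2 Ad-Cre culture was above the AT2 Ad-GFP culture.

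**Figure D4:**
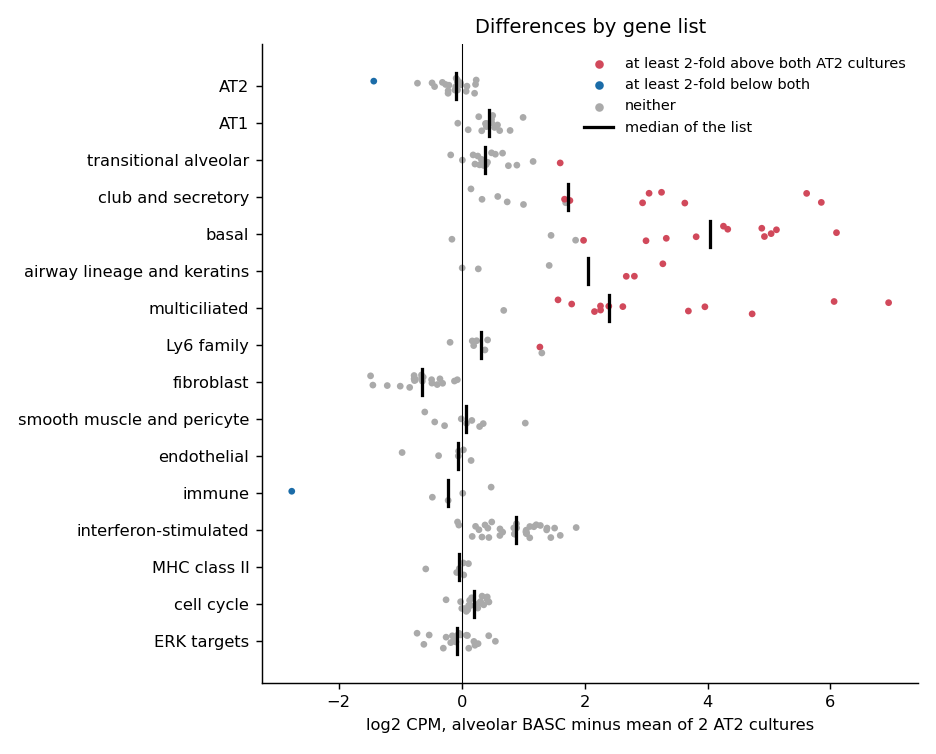
Difference in log2 CPM between the alveolar BASC culture and the mean of the 2 AT2 cultures (horizontal axis) for the genes of 16 lists, 1 point per gene, with a bar at each list's median. Genes at least 2-fold outside both AT2 cultures are coloured, and they fall almost wholly in the airway lists, while fibroblast genes lean below 0 (median -0.65) without any being called.

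Fibroblast transcripts leaned lower in the alveolar BASC culture. Of the 21 fibroblast genes compared, 19 lay below both AT2 cultures, against 36.8% of all genes, and the median difference was -0.65. None was called lower, where 0.917% of all genes were. The summed level of the list was 10464 CPM, against 16408 CPM in AT2 Ad-Cre (63.8%) and 15559 CPM in AT2 Ad-GFP (67.3%). Col3a1, a fibrillar collagen, measured 1115 CPM against 2170 and 2293 CPM. Col1a1 measured 1397 CPM against 2636 and 1832 CPM, and its locus also carries the transgene. Smooth muscle and pericyte genes had a median of 0.08 over 9 genes, and endothelial genes one of -0.05. Of 15 endothelial genes 6 could be compared and none was called, and 3 were at 0 counts in the alveolar BASC culture. The endothelial cadherin Cdh5 stood at 0.096 CPM, and the list summed to 176 CPM against 172 CPM in AT2 Ad-Cre and 217 CPM in AT2 Ad-GFP.

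Of the 135 lower genes, 98 were protein coding and 20 were pseudogenes, 28 reached 10 CPM in both AT2 cultures, and in 14 the alveolar BASC culture held 3 counts or fewer. The stromal class, genes that follow the fibroblast list over the 15 other libraries, took 28 of them (20.7%, against 6.26% of all genes compared), and 107 remained. Kif26b, a kinesin of embryonic mesenchyme, was the largest by distance in that class with at least 10 CPM, at 16.5 CPM against 42.7 and 50.5 CPM. Further members, chosen after their values were seen, were the matrix genes Ltbp2 (468 CPM against 1013 and 950 CPM) and Sned1 (135 CPM against 277 and 340 CPM), and Pappa, a protease of insulin-like growth factor binding proteins (22.4 CPM against 46.9 and 65.8 CPM). Rspo3, a Wnt agonist secreted by mesenchyme, stood at 8.72 CPM against 17.7 and 20.8 CPM.

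Among the lower genes outside the stromal class, the largest distances with at least 10 CPM were those of the pseudogenes Pgam1-ps2 and Rps2-ps10, of Zbed6 and of Gm4617. Zbed6 lies inside another gene, so its reads may be shared. Steap3, an iron reductase, followed at 6.09 CPM against 17.6 and 24.1 CPM, and Nynrin at 10.7 CPM against 29.5 and 29.1 CPM. Cbl, the ubiquitin ligase that takes EGFR off the membrane, measured 10.9 CPM against 27.0 and 26.8 CPM. Soga1 and Selenbp2 completed the 10 with Lars2, the mitochondrial leucyl-tRNA synthetase, which lay 1.19 log2 units below AT2 Ad-Cre (571 CPM) and further below AT2 Ad-GFP (794 CPM). In the 7 other organoid cultures Lars2 lay between 622 and 1102 CPM. Of 22 protocadherin gamma genes compared, 7 were lower, where 0.917% of all genes were. The 7 stood at 0.240 to 8.34 CPM against 1.04 to 18.4 CPM in the AT2 cultures. As these genes share exons they are not separate observations.

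Immune transcripts were rare in all 3 cultures, the list summing to 21.9 CPM in alveolar BASC, 22.9 CPM in AT2 Ad-Cre and 23.5 CPM in AT2 Ad-GFP. Of the 14 immune genes 5 could be compared and 1 was called lower, where 0.917% of all genes were. Of the 5, 1 lay above both AT2 cultures and 2 below both, against 34.0% and 36.8% of all genes. Their median difference was -0.19 against AT2 Ad-Cre and 0.04 against AT2 Ad-GFP. In the alveolar BASC culture 4 of the 14 were at 0 counts. Mrc1, the macrophage mannose receptor, measured 0.216 CPM against 1.09 and 2.57 CPM, and Ptprc, which encodes CD45 and marks all white blood cells, 0.695 CPM against 0.797 and 1.21 CPM. Ccl6 and Laptm5, also expressed by macrophages and chosen after their values were seen, stood at 0.072 and 0.024 CPM in the alveolar BASC culture. As picked genes they do not speak for the list, whose sums were similar in the 3 cultures. The part of stromal and immune transcripts in the other differences was not tested.

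The tumoroids gave a separate look at BASC origin, with the limit that they came from mixed BASC cultures, which also held bronchiolar organoids, and from another sequencing platform. They were tested between themselves, 3 mixed BASC against 3 AT2 tumoroids. With edgeR's quasi-likelihood test 0 of 15470 genes passed an adjusted p of 0.05 (0.0%), with 144 at an unadjusted p below 0.05. Those 144 are less than a share of 0.05 of the genes tested. Without AT2 tumoroid 3 the number was 972 of 15906, so it depended on a single tumoroid. The absence of called genes therefore does not show that the 2 origins were alike. DESeq2's Wald test called 7 of the same 15470, all higher in BASC tumoroids. Of these 7, 3 (Dsc2, Oit1 and Gm20481) were also higher in alveolar BASC organoids, as were 171 of all 15470 genes tested. The limit of the count filter given below holds for this overlap too, so it is a description. Some tumoroid labels share a number and may stem from 1 mouse, in which case the spread between tumoroids is too small.

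Of the 362 genes higher in alveolar BASC organoids 171 had enough counts in the tumoroids to be tested. In 14 of them (8.19%) every mixed BASC tumoroid lay above every AT2 tumoroid, which 1.57% of all genes tested did, and in 2 (1.17%) every one lay below, against 2.08% of all. The median log2 difference of the 171 was 0.38, against -0.04 over all genes. A gene low in the AT2 tumoroids could pass the count filter only through the mixed BASC tumoroids. That favours genes higher in mixed BASC tumoroids, so these counts are a description. Of the 14, 12 were airway genes by either reference, of 131 tested (9.16%), and 2 were not, of 40 tested. Markers of other cells leaned to one side in the same tumoroids, with none called by edgeR. Of 21 fibroblast genes 19 had a log2 difference below 0 (median -0.43), as had 7 of 7 MHC class II genes (median -1.06). By contrast, 11 of 11 club and secretory genes were above 0 (median 1.48). Among all 15470 genes tested, 8732 were below 0 and 6738 above. Lists that do not mark a cell type leaned too. Below 0 were 18 of 20 cell cycle genes and 15 of 16 lipid and cholesterol synthesis genes, and 25 of 33 interferon-stimulated genes were above. The part of any of these lists in the count was not tested. Mixed BASC tumoroid 2 stood apart in Scgb1a1, with 747 CPM against 12.1 and 17.3 CPM in the other two. Leaving this tumoroid out was a choice made after the values were seen. Without it, 25 of the 171 (14.6%) lay above every AT2 tumoroid, against 4.48% of all genes. A group of fewer tumoroids overlaps less by construction, so the larger count is not a stronger result. Of the 135 lower genes 106 were tested, and in 1 every mixed BASC tumoroid lay below every AT2 tumoroid.

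Of the 7 multiciliated genes tested in the tumoroids, 3 had a log2 difference above 0 and 4 below, with a median of -0.05. Among these genes only Foxj1 belonged to the 14. It measured 4.80, 17.6 and 6.21 CPM in mixed BASC tumoroids and 1.06, 1.35 and 1.94 CPM in AT2 tumoroids, with no overlap (log2 fold change 2.71, SE 0.63, adjusted p = 1 by edgeR). Dsc2, a desmosomal cadherin, measured 7.15, 44.3 and 46.9 CPM against 0.821, 0.532 and 0.065 CPM (log2 fold change 6.07, SE 1.08, adjusted p = 1 by edgeR). Its organoid levels were 29.6 CPM in alveolar BASC against 6.88 and 3.29 CPM. Pkp1, a second desmosome gene, and the secretory metalloprotease gene Adam28 were also apart in the tumoroids. In the organoids Adam28 measured 124 CPM in alveolar BASC against 12.2 and 9.11 CPM.

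The markers Sftpc, Krt5 and Ly6a did not separate the tumoroids, whereas the groups did not overlap for Foxj1 and Trp63. Foxj1 was 1 of 7 multiciliated genes tested and Trp63, not called in the organoids, 1 of 6 basal genes. No other gene of these 2 lists had every mixed BASC tumoroid above every AT2 tumoroid, which 1.57% of all genes tested had. Ly6a measured 67.4, 303 and 98.0 CPM in mixed BASC tumoroids against 53.1, 21.8 and 157 CPM in AT2 tumoroids, so the groups overlapped (log2 fold change 1.02, SE 0.84, adjusted p = 1 by edgeR). Sftpc was high in both, at 21422, 9632 and 19604 CPM against 64989, 41768 and 10228 CPM, also with overlap (log2 fold change -1.21, SE 0.77, adjusted p = 1 by edgeR). Krt5 was nearly absent, with 0, 9 and 4 counts from mixed BASCs and 0 counts in each AT2 tumoroid. Reg3g held at most 2 counts in any of the 6. Cyp1a1 was at 15.3 and 15.1 CPM in 2 mixed BASC tumoroids, at 0.671 CPM in the third and at 2.33 to 3.28 CPM in AT2 tumoroids.

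**Figure D5:**
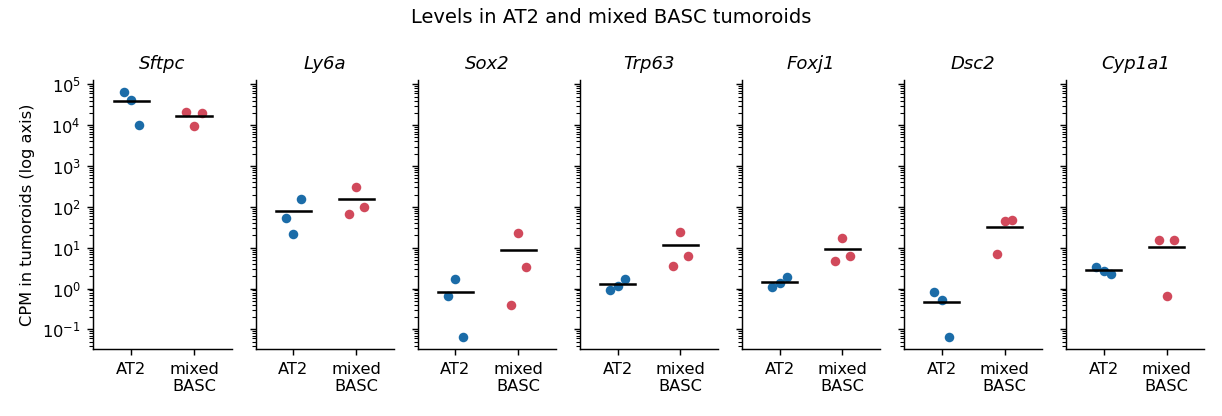
CPM (vertical log axis) of 7 genes in 3 AT2 and 3 mixed BASC tumoroids, 1 point per tumoroid with a bar at the mean. The groups overlap for Sftpc and Ly6a and do not overlap for Foxj1, Trp63 and Dsc2.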

How the data were processed

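RNA of 18 mouse lung cultures was measured, and the 3 cultures compared here were prepared with TruSeq kits and run on a HiSeq instrument. Reads were trimmed with Trimmomatic 0.39 and mapped to GRCm38, and the submitters' processing notes also name STAR 2.6.1d and RSEM 1.3.2. The authors deposited RSEM's expected count per gene, an estimated count without normalization, and its TPM, a length-scaled share used here only as an alternative. Each table held 46603 genes, of which 46005 matched GENCODE vM21. Expected counts were rounded and scaled in R 4.3.3 with edgeR 4.0.16 (TMM over the 10 organoid libraries, prior count 2). The organoid contrast has 1 culture against 2 and no test. Tumoroids were fitted alone with filterByExpr and edgeR's quasi-likelihood test, with Benjamini-Hochberg adjustment, and DESeq2 1.42.0 was an alternative. The tumoroid test was tried on simulated counts with large changes only, and the organoid contrast was not simulated. Counting error is the only error that depth describes, and a level of 3 counts or fewer was treated as the floor.

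Named genes were the markers Sftpc, Krt5 and Ly6a, called members and defining markers of 27 hand-written lists, and the 10 largest distances in each direction among called genes with at least 10 CPM, overall and outside the airway and stromal classes. Other list genes, and those marked so in the text, were chosen after their values were seen. The comparison, members and lists were chosen with earlier results of these data known. Other scalings, filters, references and omitted libraries were tried. The EGFR transgene was not analysed here.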

Additional observations from a re-analysis of the deposited data

How the results depend on the processing

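The counts of called genes moved by over 1.5 times with the AT2 culture used, the filter and the distance asked for. Higher genes made up 72.8% of all called genes, and 55.7% without a filter, 63.3% without AT2 Ad-GFP and 57.5% without AT2 Ad-Cre. The counts ranged from 474 to 655 higher and from 275 to 484 lower when 1 AT2 culture was left out, the lower values coming with AT2 Ad-Cre alone. Without that filter they were 996 and 791, and at a 4-fold distance 203 and 26. Of the main calls, 197 higher and 50 lower genes held with log2(TPM + 1), and 224 and 116 held with at least 10 counts in each culture. DESeq2's size factors gave 379 and 118.

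The airway class rose from 155 to 299 genes with the tracheal cultures as reference and to 304 with either reference, and the remaining class fell from 206 to 62 and to 57. The stromal class of higher genes went from 1 to 11 when r was taken over the 7 other organoid libraries. In the tumoroids DESeq2's Wald test called 7 genes, 3 of them organoid genes, and every other setting, leaving out each tumoroid included, called 0 genes with edgeR, with 105 to 972 at an unadjusted p below 0.05. The 972 came without AT2 tumoroid 3. Of the values of single genes under alternatives, 444 moved by less than the spread of the AT2 cultures and 52 by more. The median of the AT2 list changed sign, to 0.03, without AT2 Ad-GFP, and that of the interferon list to -0.27. No paired analysis was possible because the labels give no replicate numbers that the groups share, those of the tumoroids here being given in order of listing and only naming them. The 1 alveolar BASC culture, its hand-picking and the depth of low genes limit every value.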

Other observations

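Interferon-stimulated genes split the AT2 cultures rather than the origins. Of 33 genes of the list none was called, where 2.46% of all genes were called higher and 0.917% lower. In the alveolar BASC culture 32 were above AT2 Ad-GFP and 3 above AT2 Ad-Cre, with medians of 2.30 and -0.27 log2 units. Over all genes compared these medians were -0.001 and -0.017. Ifit1, an RNA sensor, measured 50.5 CPM in alveolar BASC organoids, 83.4 CPM in AT2 Ad-Cre and 6.56 CPM in AT2 Ad-GFP. Chemokines and cytokines had the opposite order. Cxcl5, a neutrophil attractant, stood at 169 CPM in alveolar BASC, 136 CPM in AT2 Ad-Cre and 687 CPM in AT2 Ad-GFP, and the list's median was 0.52 against AT2 Ad-Cre and -0.84 against AT2 Ad-GFP.

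Several lists showed no called gene, namely MHC class I and class II presentation, cell cycle, ERK targets, ribosome biogenesis, lipid and cholesterol synthesis, the EGF family, mesothelial, and gastric and intestinal genes. Their medians lay between -0.29 and 0.32, except for the mesothelial list with 1 gene compared. Of all genes 2.46% were called higher and 0.917% lower, so lists this short may hold none. No neuroendocrine gene was high enough to be compared. In the Notch and Wnt list 2 of 21 genes were higher, where 2.46% of all genes were, namely Hey1 (3.81 CPM against 1.35 and 1.02 CPM) and Lgr6 (2.54 CPM against 0.853 and 0.426 CPM). Xist measured 73.8 CPM in the alveolar BASC culture, 142 CPM in AT2 Ad-Cre and 153 CPM in AT2 Ad-GFP, and Y-linked Ddx3y 70.1, 55.6 and 64.1 CPM, so each of the 3 cultures held transcripts of both kinds.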
